A study of Mus musculus with 13 samples.

Results

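The comparison set 4T1 tumors exposed to 4 cycles of metronomic cyclophosphamide (CPA) against vehicle tumors, gene by gene, over the whole transcript table. 4T1 is a transplantable mammary carcinoma cell line of BALB/c mice, and the tumors were grown in the mammary fat pads of female mice of that strain. The 4 cycle tumors received CPA at 130 mg/kg every 6 days and came from mice of 12 to 13 weeks. The vehicle tumors came from mice of 10 to 11 weeks that were given the PBS vehicle. Each group had 3 RNA pools, each from 2 to 3 tumors, out of 13 pools in the series. The series also holds tumors after 2 and 7 cycles and regrowing tumors taken 18 days after a halt at 4 cycles. Dose and ages are those of the sample labels, while a supplementary sample sheet of the study lists another dose for these pools and its methods another age at implantation. Treatment and age differ together between the groups and cannot be told apart. Members were the 24170 rows with a gene symbol among the 24197 rows of the table. The question behind the comparison was how repeated exposure to CPA alters interferon responses and the immune cells of the tumor.

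CPA is a prodrug that liver cytochrome P450 enzymes convert into an alkylating agent, which crosslinks DNA in dividing cells. In metronomic schedules a moderate dose is given at short, regular intervals, and such schedules are known for acting on immune cells and vessels as well as on tumor cells. Nucleic acids that reach the cytosol of damaged cells are read by sensor proteins, which lead to type I interferon and, through its receptor, to a large set of interferon-stimulated genes. Interferon gamma, made by T and NK cells, acts through a receptor of its own and favors antigen presentation genes and a family of defensive GTPases.

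Levels are group FPKM values, that is, fragments scaled to transcript length and to the size of the library, with 1 value per group as the authors computed it over the pools. No value per pool was analysed here, so no level carries an SD, no difference carries a test, and whether a difference exceeds the spread between pools is unknown. The statements below describe these groups of pools. Differences are log2 ratios of 4 cycles over vehicle after 0.1 FPKM was added to each level, and fold values are on the same scale. A gene was counted as higher or lower where it passed 2-fold and reached at least 1 FPKM in the higher group. In bulk tumors, more cells of a type and more RNA per cell cannot be told apart.

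Of the 24170 genes, 11718 reached 1 FPKM in at least 1 of the groups. Among them 428 genes were at least 2-fold higher after 4 cycles, which is 3.65% of the tested genes, and 188 were at least 2-fold lower, which is 1.6%. The other 11102 lay within 2-fold. These shares of 3.65% and 1.6% are the ones to set beside every list count below. The median log2 ratio was 0.06, with quartiles at -0.14 and 0.26. Most tested genes thus had ratios above 1, and counts of such ratios in a list are to be read beside that. A 4-fold difference was passed by 108 genes upward and 39 downward, and an 8-fold difference by 33 and 13. Higher genes made up 69.5% of all 616 that passed 2-fold. Scaling both groups to equal FPKM sums moved the median by -0.15 and gave 359 higher and 293 lower genes, so that 55.1% were higher. Just inside the limit upward lay Cd52, at 54.9 FPKM after 4 cycles and 27.3 FPKM in vehicle tumors. Just outside lay the adhesion molecule gene Icam1, at 9.75 FPKM after 4 cycles and 4.83 FPKM in vehicle tumors. On the lower side, Car9 was just inside at 16.2 FPKM after 4 cycles and 32.7 FPKM in vehicle tumors, and Kctd11 just outside at 5.48 FPKM after 4 cycles and 11 FPKM in vehicle tumors.

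Of the genes whose higher group lay between 1 and 2 FPKM, 7.1% were at least 2-fold higher and 4.02% lower. Of those at 50 FPKM or more, 3.46% were higher and 1.11% lower. The worth of 1 read was sought in 858 short olfactory receptor genes, of which 26 were above 0 after 4 cycles and 49 in vehicle tumors. The smallest step was shared by 14 and 26 of these genes in the same order. Taken as 1 read, it put 1 FPKM on a 1 kb transcript at about 125 to 138 reads in the 4 cycle group. In the vehicle group the figure was 110 to 172 reads, both summed over the pools. The average depth that the paper gives for its tumor libraries would put these figures lower, so the estimate is uncertain. This estimate takes the listed span as the transcript length. Of the 428 higher genes, 187 did not reach 1 FPKM in vehicle tumors, so they passed the minimum through the treated group alone. That fixed the direction of their difference in advance, though not that it passed 2-fold. The same holds for 82 of the 188 lower genes, which were below 1 FPKM after 4 cycles.

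The tissue label was checked against defining markers. Genes of carcinoma epithelium were abundant, with Krt8 at 295 FPKM after 4 cycles and 267 FPKM in vehicle tumors, Krt18 at 303 and 315 FPKM, and Epcam at 81.1 and 72.6 FPKM in the same order. The leukocyte marker Ptprc, which encodes CD45, stood at 10.9 FPKM after 4 cycles and 8.21 FPKM in vehicle tumors. The endothelial markers Pecam1 and Cdh5 stood at 9.7 and 6.41 FPKM after 4 cycles and at 11.8 and 9.7 FPKM in vehicle tumors. Markers of tissues outside the tumor also differed between the groups, among them Alb of liver, Acta1 of skeletal muscle and Adipoq of fat, and their values are given with those lists.

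**Figure D1:**
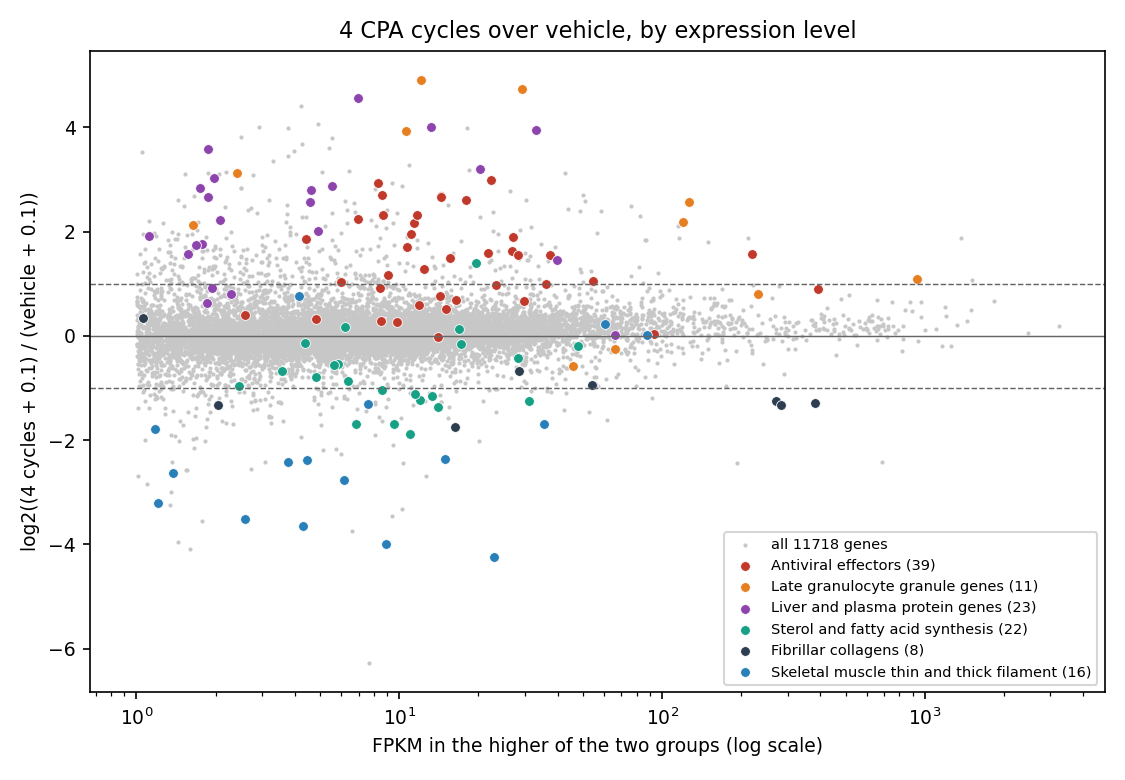
Each point is 1 of the 11718 genes with at least 1 FPKM in the higher group. The x axis is that FPKM on a log scale, the y axis is the log2 ratio of 4 cycles over vehicle after adding 0.1 FPKM, dashed lines mark 2-fold, and colors mark members of 6 gene lists. Antiviral, granule and liver genes lie mostly above the upper line, and sterol, collagen and muscle genes mostly below 0.

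Antiviral effector genes were mostly higher after 4 cycles. Of 39 antiviral effector genes, all of which were tested, 24 were at least 2-fold higher and 0 lower, against 3.65% higher over all tested genes, and their median log2 ratio was 1.5 against 0.06. Oasl1, a member of the oligoadenylate synthetase family, stood at 22.3 FPKM after 4 cycles and 2.72 FPKM in vehicle tumors, 7.97-fold higher. Rsad2, which encodes the antiviral protein viperin, stood at 8.33 FPKM after 4 cycles and 0.998 FPKM in vehicle tumors, 7.68-fold higher. Its neighbor Cmpk2, a mitochondrial nucleotide kinase, stood at 8.63 and 1.25 FPKM in the same order. Ifit1, which binds foreign RNA ends, stood at 14.4 FPKM after 4 cycles and 2.16 FPKM in vehicle tumors, and Mx1, a dynamin-like GTPase, at 6.99 and 1.4 FPKM. Bst2, the virus-tethering protein tetherin, was the most abundant higher member at 219.97 FPKM after 4 cycles and 74.3 FPKM in vehicle tumors. Ifitm1 lay at 13.8 and 14 FPKM in the same order, the 1 member with a ratio below 1, while Ifitm3 stood at 391 FPKM after 4 cycles and 210.2 FPKM in vehicle tumors, within 2-fold.

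Of 21 tested interferon signaling genes, 5 were at least 2-fold higher and 0 lower, with a median log2 ratio of 0.35. Irf7, the factor that amplifies interferon production, stood at 76 FPKM after 4 cycles and 13.4 FPKM in vehicle tumors, 5.62-fold higher. Isg15, a ubiquitin-like modifier, stood at 82.1 FPKM after 4 cycles and 16.5 FPKM in vehicle tumors, and Usp18, which removes it and dampens receptor signaling, at 20.4 and 4.12 FPKM. Stat2, a signal transducer below the receptor, stood at 19.1 FPKM after 4 cycles and 9.23 FPKM in vehicle tumors. The receptor chain genes Ifnar1 and Ifnar2 stood at 6.18 and 10.1 FPKM after 4 cycles and at 6.76 and 7.92 FPKM in vehicle tumors, and Jak1 and Tyk2 at 15.1 and 5.29 FPKM after 4 cycles and at 14.9 and 5.6 FPKM in vehicle tumors. The interferon genes were under the FPKM minimum, with Ifnb1 at 0.0388 FPKM after 4 cycles and 0.0118 FPKM in vehicle tumors and Ifng at 0.473 and 0.142 FPKM.

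Among 20 sensors of RNA and DNA, 4 were at least 2-fold higher, 0 were lower, and all 20 had ratios above 1. Dhx58, a regulator of the RIG-I-like receptors, stood at 13.3 FPKM after 4 cycles and 4.59 FPKM in vehicle tumors, and Zbp1, a sensor of Z-form nucleic acid, at 28.5 and 10.2 FPKM. Ifih1, which encodes the long double-stranded RNA sensor MDA5, stood at 7.08 FPKM after 4 cycles and 3.1 FPKM in vehicle tumors. The DNA sensing pair Mb21d1 (cGAS) and Tmem173 (STING) stood at 2.18 and 15.2 FPKM after 4 cycles and at 1.94 and 13.8 FPKM in vehicle tumors. The GTPases that respond to interferon gamma had 9 of 15 tested members at least 2-fold higher and 0 lower, with a median log2 ratio of 1.03. Gbp3 stood at 31.5 FPKM after 4 cycles and 10.8 FPKM in vehicle tumors, and Igtp at 48.7 and 20 FPKM. In the paper, an antibody to the type I interferon receptor stopped induction of Igtp by activated CPA in cultured 4T1 cells. A higher Igtp thus does not single out interferon gamma. Gbp6, Gbp10, Tgtp1, Tgtp2 and the Oas1 genes have near-identical copies that can share reads, so their values are uncertain.

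Antigen presentation genes had smaller ratios. All 20 class I presentation genes and all 10 tested class II genes had ratios above 1, with median log2 ratios of 0.67 and 0.65. Of these, 2 class I genes and 0 class II genes passed 2-fold. Psmb9, an immunoproteasome subunit, stood at 76.1 FPKM after 4 cycles and 34.3 FPKM in vehicle tumors. B2m, the light chain shared by class I molecules, stood at 873 FPKM after 4 cycles and 557 FPKM in vehicle tumors, and Cd74, the class II invariant chain, at 479 and 294 FPKM.

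Promoter sequences of leading interferon genes are shown because factors of the IRF family bind repeats of one short element. The element core was searched as TTTCNNTTTC on both strands, where N is any base, in windows from 250 bases before to 50 bases after each gene start taken from RefSeq on GRCm38.p6. It was held by 3.44% of all 32851 promoter windows. Only 300 of the 428 higher genes, 70.1%, had a window, which is under the 80% needed for a share over the set, so a comparison of higher with other genes is void and no share is given. The lines below are written 5′ to 3′ on the strand of the gene, and capitals mark the element, which appears as its reverse complement GAAANNGAAA in Isg15, Cxcl10 and Oas3. Overlapping copies give a longer run of capitals in Isg15 and Gbp3.
Rsad2: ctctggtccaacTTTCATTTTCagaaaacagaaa
Ifit1: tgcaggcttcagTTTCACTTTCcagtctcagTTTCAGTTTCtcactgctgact
Isg15: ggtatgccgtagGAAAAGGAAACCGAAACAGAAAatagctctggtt
Oas3: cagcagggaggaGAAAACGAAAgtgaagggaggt
Gbp3: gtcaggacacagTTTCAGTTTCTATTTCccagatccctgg
Cxcl10: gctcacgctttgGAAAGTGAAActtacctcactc
These stretches lie at chr12:26456551-26456584 (minus strand), chr19:34640773-34640825 (plus), chr4:156200863-156200908 (minus), chr5:120777713-120777746 (minus), chr3:142559987-142560026 (plus) and chr5:92349081-92349114 (minus) in the order of the lines. The last copy of the core ends 110 bases before the start of Rsad2, 75 before Ifit1, 56 before Isg15, 65 before Oas3, 29 before Gbp3 and 203 before Cxcl10. Isg15 held 3 overlapping copies, and Ifit1 and Gbp3 held 2 each. The windows of Cmpk2, Oasl1, Ifit2, Slfn4 and Ifi44, which were also at least 2-fold higher, did not hold these letters.

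Chemokine lists held higher members for lymphocytes as well as for myeloid cells. Of 8 tested lymphocyte chemokines, 5 were at least 2-fold higher and 0 lower, with a median log2 ratio of 1.54. Ccl5 stood at 30.4 FPKM after 4 cycles and 4.92 FPKM in vehicle tumors, 6.08-fold higher. Ccl17, a ligand of CCR4, stood at 5.55 FPKM after 4 cycles and 1 FPKM in vehicle tumors. The CXCR3 ligands Cxcl9, Cxcl10 and Cxcl11 stood at 10.5, 17.1 and 8.14 FPKM after 4 cycles and at 4.34, 4.77 and 1.81 FPKM in vehicle tumors. The receptor gene Cxcr3, named after its values were seen, lay the other way, at 0.617 FPKM after 4 cycles and 2.11 FPKM in vehicle tumors. Of 20 tested myeloid chemokines and growth factors, 9 were at least 2-fold higher and 0 lower. Ccl8 stood at 115 FPKM after 4 cycles and 26.6 FPKM in vehicle tumors, and Ccl2 at 26.9 and 12.5 FPKM. The neutrophil chemokine Cxcl2 and the growth factor gene Csf3 stood at 2.14 and 9.45 FPKM after 4 cycles and at 2.6 and 17.8 FPKM in vehicle tumors, within 2-fold.

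Most tested genes of killer lymphocytes were higher after 4 cycles. Of 14 tested members 13 were at least 2-fold higher and 0 lower, with a median log2 ratio of 1.63, and 4 of the 13 were below 1 FPKM in vehicle tumors. Most of the level lay in the granzyme C to G cluster rather than in granzyme A or B. Gzmf stood at 49.8 FPKM after 4 cycles and 7.53 FPKM in vehicle tumors, Gzmg at 51 and 8.44 FPKM, and Gzmd at 48.7 and 9.1 FPKM, while Gzmb stood at 5.44 FPKM after 4 cycles and 1.83 FPKM in vehicle tumors and Gzma at 1.64 and 0.709 FPKM. Granzymes D to G are close copies of one another and can share reads. Prf1, the pore-forming protein perforin, stood at 4.97 FPKM after 4 cycles and 1.53 FPKM in vehicle tumors. The NK receptor gene Klrd1 stood at 2.35 FPKM after 4 cycles and 0.691 FPKM in vehicle tumors, while the NK marker genes Ncr1 and Klrb1c stood at 0.542 and 0.113 FPKM after 4 cycles and at 0.227 and 0.158 FPKM in vehicle tumors, under the minimum.

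General T cell genes differed less. Of 10 tested members 2 were at least 2-fold higher, the coreceptor genes Cd8a and Cd8b1. Cd8a stood at 1.88 FPKM after 4 cycles and 0.724 FPKM in vehicle tumors, and Cd8b1 at 1.34 and 0.582 FPKM. Both passed the minimum through the treated group alone. Cd3e stood at 1.18 FPKM after 4 cycles and 0.986 FPKM in vehicle tumors, and Cd4 at 0.558 and 0.608 FPKM. Among regulatory and checkpoint genes 4 of 10 tested were at least 2-fold higher and 0 lower, namely Ido1, Pdcd1, Cd80 and Cd274. Of these 4, 3 were below 1 FPKM in vehicle tumors. Cd274, which encodes PD-L1, stood at 8.27 FPKM after 4 cycles and 3.85 FPKM in vehicle tumors, and Pdcd1, which encodes PD-1, at 2.09 and 0.648 FPKM. Foxp3, the factor of regulatory T cells, was under the minimum at 0.0258 FPKM after 4 cycles and 0.128 FPKM in vehicle tumors.

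B lineage genes lay in the other direction. Of the 4 tested, 3 were at least 2-fold lower and 0 higher, with a median log2 ratio of -2.23. Cd79a, part of the B cell receptor, stood at 0.177 FPKM after 4 cycles and 1.54 FPKM in vehicle tumors. Igj, the joining chain of secreted antibodies, stood at 0.0514 and 1.34 FPKM in the same order. Both passed the minimum through vehicle tumors alone. Ms4a1, which encodes the B cell surface protein CD20, was under the minimum in both groups, at 0.0113 FPKM after 4 cycles and 0.793 FPKM in vehicle tumors. Glycam1, a gene of lymph node venules and of mammary gland, was listed at 0 after 4 cycles and at 7.66 FPKM in vehicle tumors. The other lymph node gene Ccl21a was listed at 0 in both groups, and Ccl19 stood at 0.00565 FPKM after 4 cycles and 0.00632 FPKM in vehicle tumors. Both are listed over long, overlapping spans of 1 chromosome, so these values can be failed estimates and do not show that lymph node RNA was absent. The part of lymph node tissue in the B lineage values was not tested.

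**Figure D2:**
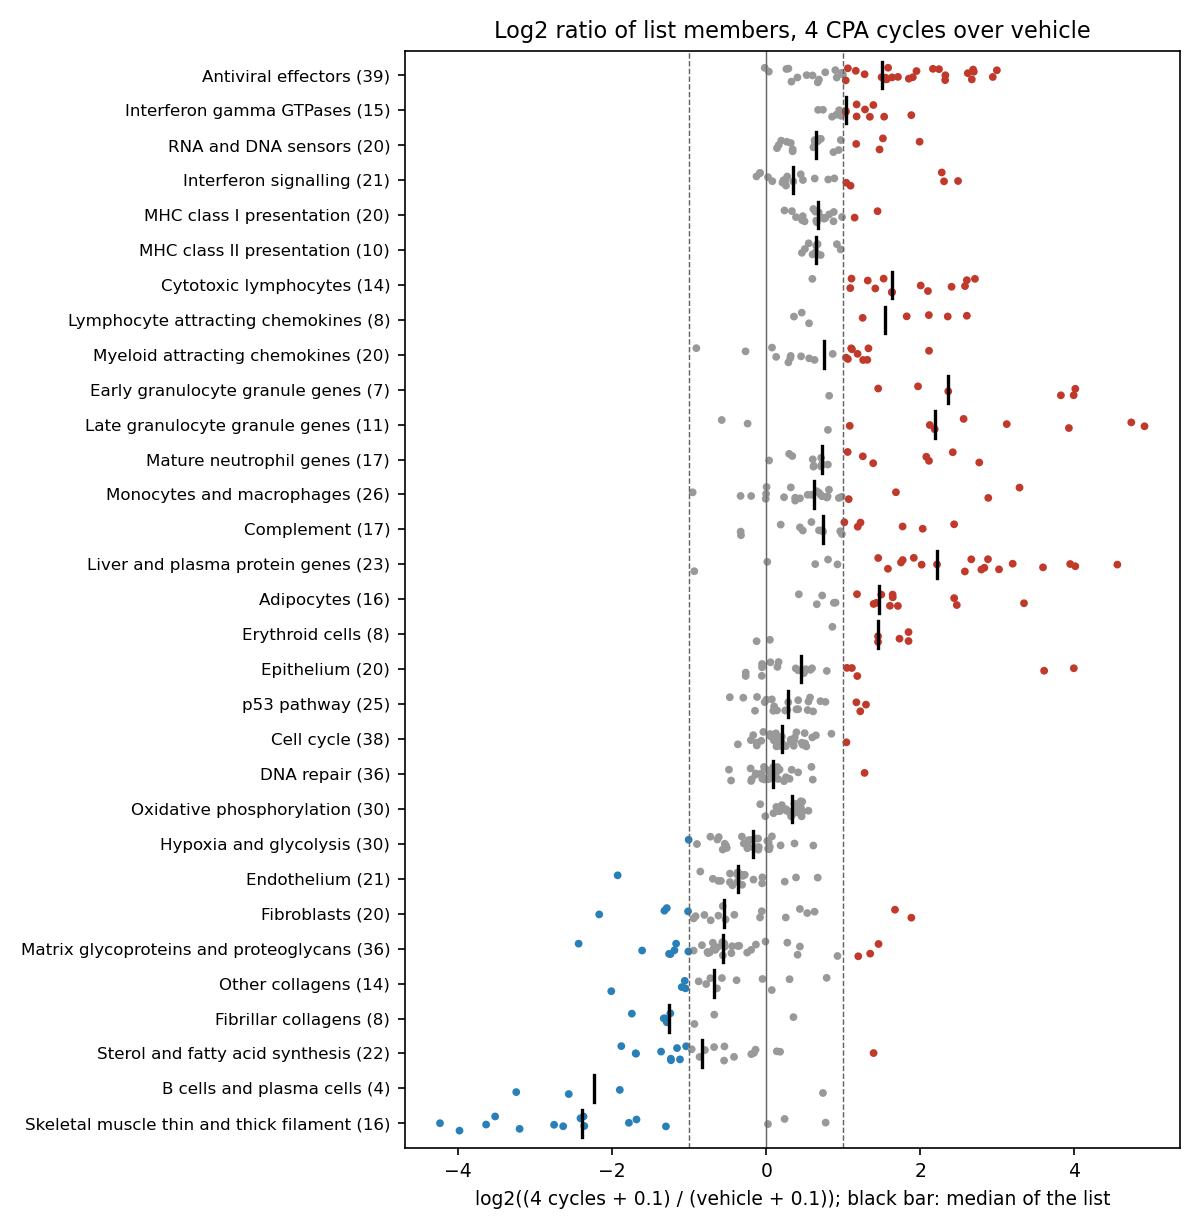
Each row is a gene list with its number of tested members, each point a member and the black bar the list median. The x axis is the log2 ratio of 4 cycles over vehicle after adding 0.1 FPKM, red and blue points passed 2-fold upward and downward, and dashed lines mark 2-fold. Lists run from interferon and immune lists at the top, with medians of up to 2.36 for early granule genes, to sterol, B cell and muscle lists at the bottom, with medians down to -2.39.

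Granule protein genes of developing granulocytes included Camp and Ngp, the 2 genes with the highest ratios of the whole comparison. Neutrophil granules are filled during maturation in bone marrow, first with elastase, cathepsin G and myeloperoxidase and later with lactoferrin and cathelicidin. Of 7 tested early granule genes 6 were at least 2-fold higher, and of 11 tested late granule genes 8 were, with 0 lower in either list and medians of 2.36 and 2.19. Camp, the cathelicidin gene, stood at 12.1 FPKM after 4 cycles and 0.306 FPKM in vehicle tumors, 30.1-fold higher, and Ngp at 29.2 and 0.998 FPKM, 26.7-fold higher. Ltf, which encodes lactoferrin, stood at 10.6 FPKM after 4 cycles and 0.604 FPKM in vehicle tumors. Elane, Ctsg and Mpo, the early granule genes, stood at 2.92, 3.78 and 2.5 FPKM after 4 cycles and at 0.087, 0.144 and 0.0837 FPKM in vehicle tumors. S100a8 and S100a9, the abundant neutrophil alarmin genes, stood at 127 and 119.6 FPKM after 4 cycles and at 21.4 and 26.2 FPKM in vehicle tumors. Of the 14 higher granule genes, 9 were below 1 FPKM in vehicle tumors. Mmp9 and Padi4, also counted with the granule genes, stood at 30.7 and 56.1 FPKM after 4 cycles and at 45.9 and 66.4 FPKM in vehicle tumors.

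Genes of mature neutrophils had smaller ratios, with 7 of 17 tested at least 2-fold higher, 0 lower and a median log2 ratio of 0.72. The stefin genes Stfa2, Stfa3 and BC100530, which are close copies, and Retnlg at 8.88 FPKM after 4 cycles and 2.03 FPKM in vehicle tumors were among them. The chemokine receptor gene Cxcr2 stood at 1.08 FPKM after 4 cycles and 0.67 FPKM in vehicle tumors, and the growth factor receptor gene Csf3r at 3.95 and 2.55 FPKM. Of 26 tested monocyte and macrophage genes, 4 were at least 2-fold higher and 0 lower, with a median of 0.62. Gpnmb, a glycoprotein of lipid-laden macrophages, stood at 10.9 FPKM after 4 cycles and 1.03 FPKM in vehicle tumors, 9.77-fold higher. Ly6c2, a marker of inflammatory monocytes, stood at 10.2 FPKM after 4 cycles and 1.3 FPKM in vehicle tumors. The pan-macrophage genes Csf1r and Cd68 stood at 28 and 31.4 FPKM after 4 cycles and at 27.9 and 18.1 FPKM in vehicle tumors, and the scavenger receptor gene Cd163 at 1.1 and 2.22 FPKM, just within 2-fold.

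Other leukocyte lists were partly low. Of 8 tested dendritic cell genes 3 were at least 2-fold higher, including Itgax at 8.02 FPKM after 4 cycles and 3.61 FPKM in vehicle tumors, and 1 was lower, the lectin gene Cd209c at 1.88 FPKM after 4 cycles and 12.6 FPKM in vehicle tumors. The dendritic cell genes Flt3, Xcr1 and Clec9a were under the minimum. Of 8 tested mast cell and eosinophil genes 4 were higher, Ear2, Mcpt1, Mcpt2 and Cma1, of which 2 were below 1 FPKM in vehicle tumors. Kit and Cpa3, which define mast cells, stood at 0.997 and 0.501 FPKM after 4 cycles and at 1.43 and 0.323 FPKM in vehicle tumors. Of 8 tested erythroid genes 5 were higher and 0 lower. The hemoglobin gene Hbb-b1 stood at 87 FPKM after 4 cycles and 24.1 FPKM in vehicle tumors, and Alas2, the heme synthesis enzyme of red cells, at 1.99 and 0.532 FPKM. Of 17 tested complement genes 6 were at least 2-fold higher and 0 lower, with a median of 0.74. Cfd, complement factor D, which fat cells also secrete, stood at 43.8 FPKM after 4 cycles and 7.99 FPKM in vehicle tumors, and Cfb and C4b at 34.7 and 28.9 FPKM after 4 cycles and 10.1 and 6.99 FPKM in vehicle tumors. Of 25 tested cytokine and receptor genes 4 were higher, Il1rn, Tnf, Il18bp and Il27, of which 2 were below 1 FPKM in vehicle tumors. Il6 stood at 0.496 FPKM after 4 cycles and 0.766 FPKM in vehicle tumors.

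Most tested fibrillar collagens were lower after 4 cycles. Of 8 tested fibrillar collagens 5 were at least 2-fold lower and 0 higher, against 1.6% lower over all tested genes, with a median log2 ratio of -1.27. Col1a1 and Col1a2, the chains of type I collagen, stood at 155 and 114 FPKM after 4 cycles and at 380.2 and 271 FPKM in vehicle tumors. Col3a1 stood at 114 FPKM after 4 cycles and 285 FPKM in vehicle tumors, and Col5a3 at 4.8 and 16.3 FPKM. Of 14 other tested collagens 4 were lower and 0 higher, led by Col6a3 at 4.91 FPKM after 4 cycles and 20.1 FPKM in vehicle tumors. Basement membrane collagen Col4a1 stood at 41.1 FPKM after 4 cycles and 68 FPKM in vehicle tumors, within 2-fold. Among 22 tested processing enzymes 3 were lower and 0 higher, the crosslinking oxidases Lox and Loxl2 and the collagen chaperone Fkbp10. Lox stood at 5.05 FPKM after 4 cycles and 15.3 FPKM in vehicle tumors.

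The other matrix and stromal lists were mixed. Of 36 tested matrix glycoproteins and proteoglycans 7 were at least 2-fold lower, including Tnc (tenascin C) at 20 FPKM after 4 cycles and 61.5 FPKM in vehicle tumors, Postn (periostin) at 40 and 91.6 FPKM, and elastin, Eln, at 8.75 and 20.9 FPKM. In the same list 3 were higher, the dermal and tendon proteoglycan genes Ogn and Prelp and Dpt, at 1.49, 2.54 and 5.63 FPKM after 4 cycles and 0.524, 1.06 and 1.99 FPKM in vehicle tumors. Of 20 tested fibroblast genes 4 were lower, Col1a1 and Acta2 and the factors Twist2 at 1.2 FPKM after 4 cycles and 5.73 FPKM in vehicle tumors and Prrx1 at 1.23 and 3.22 FPKM, and 2 were higher, Pi16 and Ly6a. Ly6a, which encodes Sca-1 and is also an interferon-stimulated gene, stood at 116 FPKM after 4 cycles and 31.4 FPKM in vehicle tumors. Pdgfra stood at 10.7 FPKM after 4 cycles and 8.92 FPKM in vehicle tumors, and Pdgfrb at 5.09 and 8.46 FPKM.

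Of 13 tested smooth muscle and pericyte genes 4 were lower and 0 higher: Des, Acta2, and the potassium channel genes of pericytes Kcnj8 and Abcc9. Kcnj8 and Abcc9 stood at 0.789 and 0.459 FPKM after 4 cycles and at 1.75 and 1.13 FPKM in vehicle tumors. Like Des, they passed the minimum through vehicle tumors alone, so of the 4 only Acta2 reached 1 FPKM in both groups. Acta2 stood at 10.8 FPKM after 4 cycles and 21.9 FPKM in vehicle tumors. Des, which encodes desmin, is a gene of skeletal muscle too and counted in that list as well. It stood at 10.3 FPKM in vehicle tumors, at 3.12, 0.932 and 18.7 FPKM after 2, 4 and 7 cycles, and at 2.88 FPKM in regrowth. Skeletal muscle genes such as Acta1, given with their list, were likewise lowest after 4 cycles and highest after 7, and their part in the level of Des was not tested. Of 21 tested endothelial genes 18 had ratios below 1 and 1 was at least 2-fold lower, against 1.6% lower over all tested genes. The list median was -0.37. The lower gene was the apelin receptor gene Aplnr, at 1.03 FPKM after 4 cycles and 4.22 FPKM in vehicle tumors. Of 25 tested proteases and inhibitors 3 were higher, including macrophage elastase Mmp12 at 22.4 FPKM after 4 cycles and 8.13 FPKM in vehicle tumors, and 3 were lower, including Mmp10 at 3.2 and 8.06 FPKM. Of 18 genes of TGF beta signaling and mesenchymal factors 0 passed 2-fold. Tgfb1 stood at 33.9 FPKM after 4 cycles and 34.7 FPKM in vehicle tumors, and the list median of -0.08 lay below that of all genes.

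All 9 lower members of the sterol and fatty acid list act in sterol synthesis, sterol uptake or their control. The transcription factor SREBP2 drives these enzymes when membrane cholesterol is low. Of 22 tested members of the sterol and fatty acid list 9 were at least 2-fold lower, 19 had ratios below 1, and the median log2 ratio was -0.83. Early in the pathway, Idi1, the isomerase of its isoprene units, stood at 2.87 FPKM after 4 cycles and 9.53 FPKM in vehicle tumors, and Fdps, which makes farnesyl diphosphate, at 13.1 and 31.1 FPKM. Sqle, which commits squalene to sterols, stood at 5.01 FPKM after 4 cycles and 12 FPKM in vehicle tumors. Of the later steps, Cyp51, the lanosterol demethylase, stood at 2.06 FPKM after 4 cycles and 6.87 FPKM in vehicle tumors. The regulators Srebf2 and Insig1 stood at 5.89 and 5.24 FPKM after 4 cycles and at 13.3 and 11.5 FPKM in vehicle tumors. Hmgcs1 was listed at 0 in both groups, which can be a failed estimate in a gene that every cell uses.

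Fatty acid synthesis genes of the same list, other than Scd1, lay within 2-fold. Fasn and Acaca stood at 15.4 and 3.97 FPKM after 4 cycles and at 17.2 and 4.39 FPKM in vehicle tumors, and Srebf1 at 16.9 and 15.4 FPKM. Scd1, the desaturase of saturated fatty acids, was the 1 higher member at 19.5 FPKM after 4 cycles and 7.37 FPKM in vehicle tumors. Genes outside the list, chosen after their values were seen, lay on both sides. Msmo1 and Stard4, a sterol oxidase and a sterol carrier, stood at 6.45 and 1.09 FPKM after 4 cycles and at 14.3 and 3.62 FPKM in vehicle tumors. The cholesterol efflux pump genes Abcg1 and Abca1 stood at 5.1 and 7.16 FPKM after 4 cycles and at 1.55 and 4.09 FPKM in vehicle tumors. In a list of 54 lysosome and lipid handling genes, also added after values were seen, 47 had ratios above 1 and 5 passed 2-fold upward, Gpnmb, Apoc1, Abcg1, Atp6v0d2 and Apoe.

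**Figure D3:**
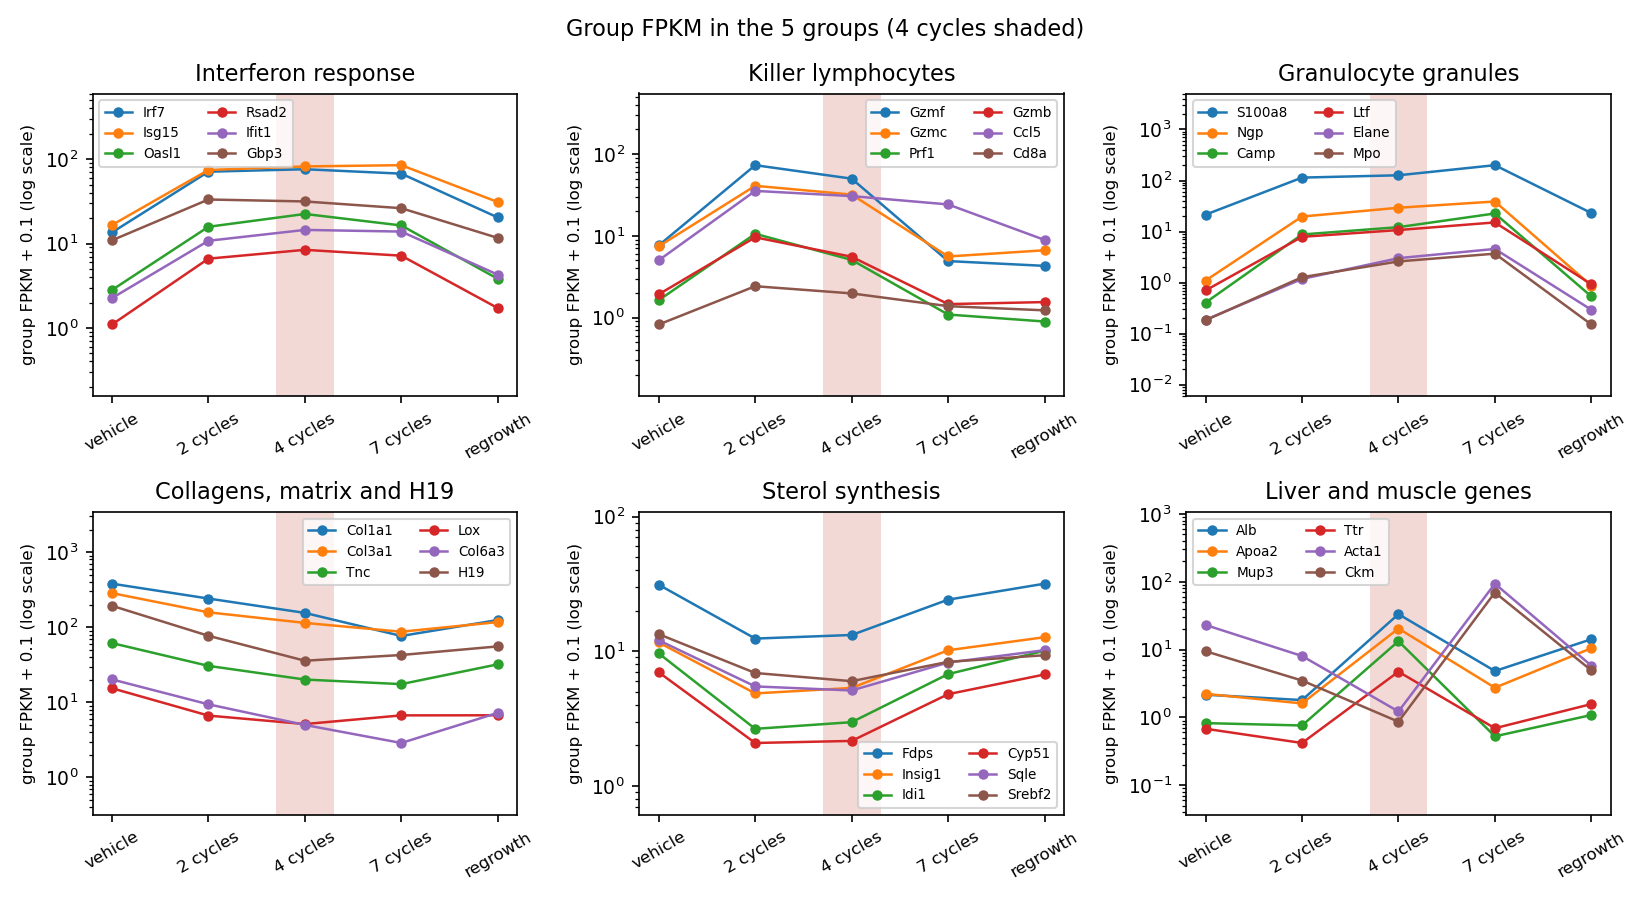
Group FPKM plus 0.1 on a log scale in vehicle tumors, after 2, 4 and 7 cycles and in regrowth, with the 4 cycle group shaded, for 6 genes in each of 6 panels. There is 1 value per group and no error bar. Interferon genes such as Irf7, at 13.4, 71.1, 76, 67.3 and 20.3 FPKM across the groups, lay between 67.3 and 76 FPKM in the 3 treated groups, while Alb stood above every other group after 4 cycles.

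Most genes of epithelial, cell cycle and repair programs lay within 2-fold. Of 20 tested epithelial genes 5 were at least 2-fold higher and 0 lower, and those with the largest ratios are keratins of basal epithelium. Krt17 stood at 18.2 FPKM after 4 cycles and 1.05 FPKM in vehicle tumors, 15.9-fold higher, and Krt5 at 5.39 and 0.35 FPKM, 12.2-fold higher. Krt14, the partner of Krt5, stood at 44.1 and 25.5 FPKM in the same order. The skin differentiation genes Krt1 and Krt10 were under the minimum in both groups, at 0.0336 and 0.816 FPKM after 4 cycles and 0.13 and 0.879 FPKM in vehicle tumors. Wnt6, a Wnt ligand of epithelium, stood at 4.25 FPKM after 4 cycles and 0.241 FPKM in vehicle tumors. Cell cycle genes had 1 of 38 members at least 2-fold higher, Ccnd2, a share below the 3.65% over all tested genes. Their median log2 ratio was 0.20. Mki67, the proliferation marker, stood at 12.2 FPKM after 4 cycles and 13.8 FPKM in vehicle tumors, and Top2a at 44 and 40.4 FPKM.

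Of 25 tested p53 pathway genes 3 were at least 2-fold higher and 0 lower, against 3.65% and 1.6% over all tested genes. Cdkn1a, the cell cycle inhibitor p21, stood at 24.1 FPKM after 4 cycles and 9.78 FPKM in vehicle tumors, and the death receptor gene Fas at 4.83 and 2.02 FPKM. Mdm2, the feedback ligase of p53, stood at 12.1 FPKM in both groups. Of 36 tested DNA repair genes 1 was higher and 0 lower, a share of higher genes below the 3.65% over all tested genes. Their median of 0.08 became -0.07 with groups scaled to equal sums. The 1 gene was Mgmt, the alkylguanine transferase, at 1.81 FPKM after 4 cycles and 0.688 FPKM in vehicle tumors. The list of genes of CPA detoxification and export had 4 of 26 tested higher and 1 lower. The 4 were Gsta4, Gstt1, Gstm1 and Cyp3a11, and the 1 was Aldh1a2, at 0.714 FPKM after 4 cycles and 1.7 FPKM in vehicle tumors. Cyp3a11 is a liver cytochrome P450, of the enzyme family that converts CPA, and its values are given with the liver genes. Gsta4 stood at 10.7 FPKM after 4 cycles and 4.01 FPKM in vehicle tumors. Aldh1a1, which inactivates the aldehyde form of CPA, was under the minimum at 0.755 and 0.178 FPKM in the same order.

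Among 31 tested genes of the BCL2 family and cell death, 3 were at least 2-fold higher and 0 lower: Bcl2a1b and Bcl2a1d, survival genes of leukocytes with close copies, and Casp4, which cuts the pore protein of pyroptosis, at 8.65 FPKM after 4 cycles and 4.09 FPKM in vehicle tumors. Of 30 hypoxia and glycolysis genes 1 was lower, the carbonic anhydrase gene Car9, against 1.6% lower over all tested genes. In that list 21 had ratios below 1, with a median of -0.18. Oxidative phosphorylation genes had 28 of 30 ratios above 1, a median of 0.34 and 0 past 2-fold. Unfolded protein and heat shock genes had 0 of 28 past 2-fold, and their median of 0.15 became -0.0035 under scaling to equal sums. Immediate early genes had 0 of 20 past 2-fold, with a median of -0.02. Of 7 tested genes of the EGF receptor family 1 was lower, the ligand gene Tgfa at 5.29 FPKM after 4 cycles and 11.6 FPKM in vehicle tumors.

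Of 8 tested imprinted growth genes, 3 were at least 2-fold lower, H19, Grb10 and Meg3, and 1 was higher, Nnat. H19, a noncoding RNA of fetal growth that tumors can re-express, stood at 35.8 FPKM after 4 cycles and 193 FPKM in vehicle tumors, 5.38-fold lower (chromosome 7 on mm9). The entry for the microRNA gene Mir675, which lies within H19, stood at 128.5 FPKM after 4 cycles and 684 FPKM in vehicle tumors. Reads of H19 can be counted in that entry, so it is no measure of the mature microRNA.

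Most tested genes made in liver were higher after 4 cycles. Of 23 tested genes in the liver and plasma protein list 18 were at least 2-fold higher and 0 lower, with a median log2 ratio of 2.22, and 14 of the 18 were below 1 FPKM in vehicle tumors. Alb, the serum albumin gene that defines hepatocytes, stood at 33.2 FPKM after 4 cycles and 2.06 FPKM in vehicle tumors, 15.4-fold higher, and the apolipoprotein gene Apoa2 at 20.4 and 2.13 FPKM. Mup3 and Mup20, urinary protein genes of a family of close copies, stood at 13.2 and 6.97 FPKM after 4 cycles and at 0.725 and 0.2 FPKM in vehicle tumors. Cyp3a11, a liver cytochrome P450, stood at 3.78 FPKM after 4 cycles and 0.255 FPKM in vehicle tumors. In a longer list of 85 liver genes added after values were seen, 34 of 43 tested were higher and 0 lower, and 81 of the 85 lay above vehicle. Of the 34, 26 were below 1 FPKM in vehicle tumors and passed the minimum through the treated group alone. The summed level of the list was 439.7 FPKM after 4 cycles and 209.1 FPKM in vehicle tumors. Much of it lay in Trf and Arg1, both within 2-fold. They stood at 66.2 and 119.9 FPKM after 4 cycles and at 65.6 and 82.6 FPKM in vehicle tumors. The part of liver RNA in these values was not tested. Without these genes, 394 genes were at least 2-fold higher.

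The liver genes split by their course over the groups. Alb stood at 2.06 FPKM in vehicle tumors and at 1.7, 33.2 and 4.73 FPKM after 2, 4 and 7 cycles, with 14.1 FPKM in regrowth. Mup3 stood at 0.725 FPKM in vehicle tumors, at 0.661, 13.2 and 0.427 FPKM after 2, 4 and 7 cycles, and at 0.986 FPKM in regrowth. Both were thus highest in the 4 cycle group. The acute phase genes Lbp and Saa2, which other cells can also express, followed the cycles instead. Lbp stood at 1.96 FPKM in vehicle tumors, at 5.97, 18.5 and 23.7 FPKM after 2, 4 and 7 cycles, and at 7.5 FPKM in regrowth.

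Fat and muscle genes also separated the groups. Of 16 tested adipocyte genes 11 were at least 2-fold higher and 0 lower, with a median of 1.46, and 5 of the 11 were below 1 FPKM in vehicle tumors. The hormone gene Adipoq stood at 4.45 FPKM after 4 cycles and 1.29 FPKM in vehicle tumors, the lipid droplet gene Plin1 at 1.63 and 0.454 FPKM, and Pparg, the factor that defines the lineage, was under the minimum at 0.577 and 0.324 FPKM. Of 16 tested skeletal muscle filament genes 13 were at least 2-fold lower and 0 higher, with a median of -2.39. Of 13 tested muscle calcium and metabolism genes 9 were lower. Among the lower genes of both lists only Acta1, Tnnt3, Tnni2 and Tpm2 reached 1 FPKM after 4 cycles. The others passed the minimum through vehicle tumors alone, which fixed their direction in advance. Acta1, skeletal actin, stood at 1.12 FPKM after 4 cycles and 23 FPKM in vehicle tumors, 18.8-fold lower, Ckm, the muscle creatine kinase, at 0.765 and 9.36 FPKM, and the fast myosin gene Myh4 at 0.254 and 4.31 FPKM. The 1 higher gene of the second muscle list was Car3, which fat cells express as well. Across the groups Acta1 stood at 23 FPKM in vehicle tumors, at 7.95, 1.12 and 93.6 FPKM after 2, 4 and 7 cycles, and at 5.7 FPKM in regrowth. Without both muscle lists, 166 genes were at least 2-fold lower. The part of adjoining muscle and fat in these values was not tested.

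**Figure D4:**
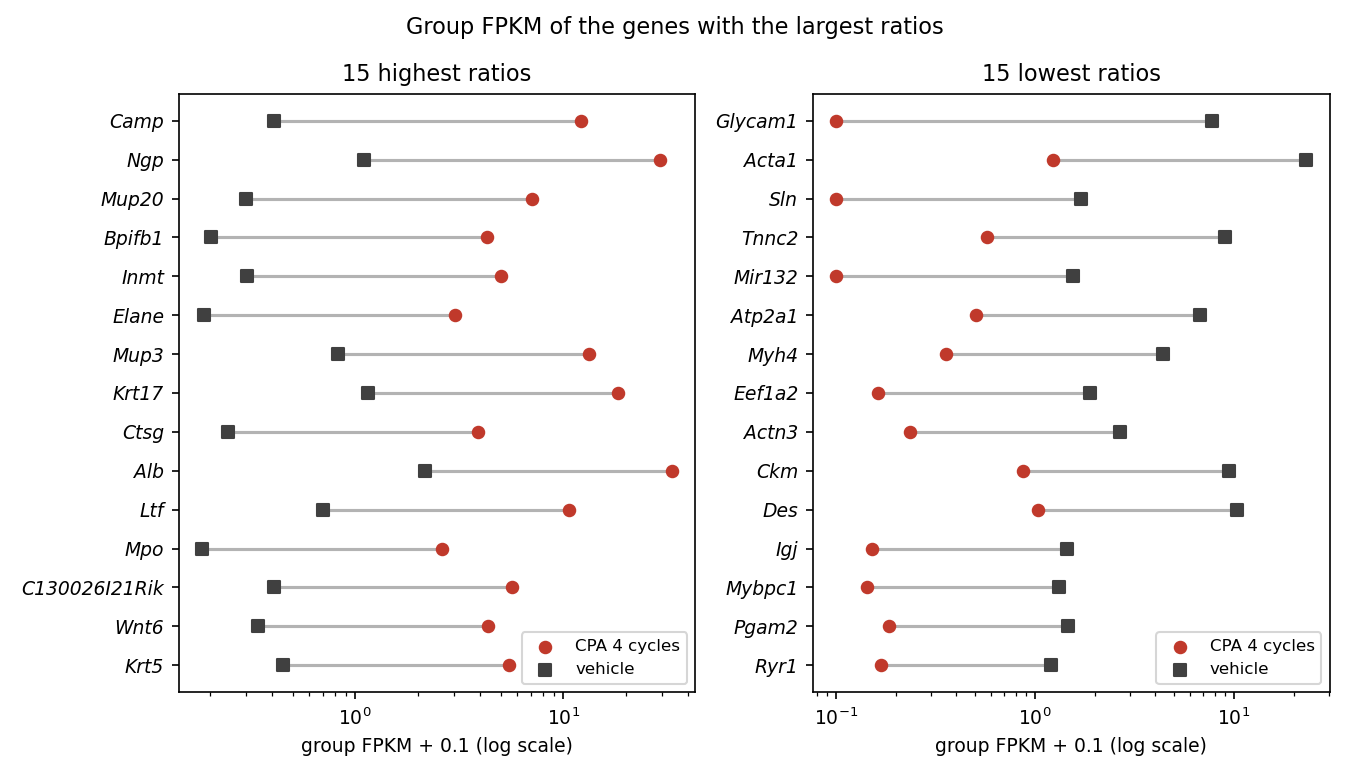
Group FPKM plus 0.1 on a log scale for the 15 highest and 15 lowest ratios, with 4 cycles as red circles and vehicle as dark squares joined by a line. There is 1 value per group and no error bar. Granule genes lead on the left, with Camp at 12.1 FPKM after 4 cycles and 0.306 FPKM in vehicle tumors, and muscle genes fill most of the right panel.

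The genes with the largest differences in FPKM were different ones. The largest gain belonged to the entry of the microRNA gene Mir7678, which lies within Slpi on chromosome 2. Slpi, a secreted inhibitor of neutrophil elastase, stood at 212 FPKM after 4 cycles and 58 FPKM in vehicle tumors. Apoe, the apolipoprotein of macrophages and liver, gained 792 FPKM, at 1512 FPKM after 4 cycles and 720.2 FPKM in vehicle tumors, and Lyz2, the lysozyme of myeloid cells, stood at 933 and 440.1 FPKM. The ferritin genes Ftl1 and Fth1 stood at 1188 and 892 FPKM after 4 cycles and at 807 and 641 FPKM in vehicle tumors, within 2-fold. The class I genes H2-D1 and H2-L were also among the 15 largest gains. Their entries overlap on mm9, so both can count the same reads. The largest losses after Mir675 were those of Col1a1, Col3a1, H19 and Col1a2. The abundant transcripts Vim and Spp1, which encode vimentin and osteopontin, were also among the 15 largest losses, at 665 and 1012 FPKM after 4 cycles and at 816 and 1160.5 FPKM in vehicle tumors, within 2-fold.

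Higher genes often lay beside each other in the genome. Of the 428 higher genes, 165 (38.6%) had another higher gene within 100 kb, against 8.8% of the 11290 other tested genes. For the 188 lower genes the figures were 30 (16%), against 4.96% of the others. The largest run of higher genes held 10 of the 12 tested genes on chromosome 14 from 56560287 to 56881097 (mm9), from the mast cell proteases Cma1, Mcpt1 and Mcpt2 through Ctsg to granzymes B to G. Another run of 8 of 8 tested genes spanned chromosome 11 from 83339280 to 83566148, with Ccl5, Ccl9, Ccl6, Ccl3, Ccl4 and 3 genes of the Wfdc family. The Oas genes on chromosome 5, the Ifit genes on chromosome 19 and the Ly6 genes on chromosome 15 gave runs of 5, 4 and 4. The largest run of lower genes held Syt8, Tnni2, Tnnt3, H19 and Mir675 on chromosome 7, 5 of 7 tested genes. Close copies in such families can share reads, and overlapping entries count the same reads, so members of a run are not independent.

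Across the groups, the 4 cycle tumors stood at different points of each course, as the plot of the 5 groups shows. Antiviral effector genes summed to 616 FPKM in vehicle tumors, to 1226, 1289 and 1267 FPKM after 2, 4 and 7 cycles, and to 737 FPKM in regrowth. Killer lymphocyte genes summed to 53.3 FPKM in vehicle tumors, to 404.3, 259.9 and 69.1 FPKM after 2, 4 and 7 cycles, and to 52.7 FPKM in regrowth. After 4 cycles most of that sum lay in granzymes C to G, of which D to G can share reads. The sum is therefore no measure of the number of killer lymphocytes. The granule gene Camp stood at 0.306 FPKM in vehicle tumors, at 8.68, 12.1 and 22.5 FPKM after 2, 4 and 7 cycles, and at 0.438 FPKM in regrowth. Fibrillar collagens summed to 1039 FPKM in vehicle tumors, to 643, 437 and 257 FPKM after 2, 4 and 7 cycles, and to 396 FPKM in regrowth. The sterol gene Idi1 stood at 9.53 FPKM in vehicle tumors, at 2.55, 2.87 and 6.66 FPKM after 2, 4 and 7 cycles, and at 9.98 FPKM in regrowth. Each level is 1 value per group from that group's own pools, and the mice differ in age along the series.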

How the data were processed

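Polyadenylated RNA of 4T1 tumors was sequenced by the authors as strand-specific libraries, and per the submitters' processing notes TopHat2, featureCounts, edgeR and the mm9 build were used. Their versions and the gene annotation were not stated in the sources used here. For each gene the authors deposited 1 FPKM per group, computed over its pools. It also holds 12 columns of the authors' own ratios, fold changes and p-values, which were not used. An edgeR fit was not possible on group values, and no value per pool was analysed here, so no test, SD or interval is given.

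Log2 ratios were computed after adding 0.1 FPKM to each group. Genes were counted past 2-fold with at least 1 FPKM in the higher group, with python 3.11.15 and pandas 2.3.3, and the counting was tested on simulated data. Rows with a date in place of a symbol (27) were left out. Of the symbols, 23251 matched a current reference symbol, 827 an older name and 92 none. Named genes were the 15 highest and 15 lowest ratios, the 15 largest gains and losses in FPKM, and in each list up to 6 members with the largest change, plus members that define it. The members and the 57 gene lists were chosen with earlier results of these data known, and 2 further lists and the removal of liver, muscle and small RNA genes were added after values were seen. Other pseudocounts, minimums, a 3-fold limit and both scalings were tried. Coordinates are the table's, on mm9, except those of promoter windows, which are RefSeq's on GRCm38.p6 and matched by symbol. Some genes of the lists are not reported here by name.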

Additional observations from a re-analysis of the deposited data

How the results depend on the processing

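No paired analysis was possible because the table gives 1 value per group, and for the same reason no pool could be left out. The 428 higher and 188 lower genes became 236 and 90 with a pseudocount of 1 FPKM, 195 and 84 with a minimum of 5 FPKM, 802 and 421 with no minimum, and 193 and 64 at 3-fold. A pseudocount of 0.01, a minimum of 0.5 FPKM, equal medians, and the removal of microRNA and small nucleolar RNA entries, of liver genes or of muscle genes, the last 3 chosen after seeing the data, kept both counts within 1.5 times. With equal sums 293 genes were lower, since that scaling shifts every ratio down. The lower counts follow from stricter limits. The 272 genes past 2-fold among list members and ranked genes kept their direction under the 8 alternatives of pseudocount, minimum, fold limit and scaling. None of these settings could reverse a ratio of that size, so this is no test of direction. Of the 272 genes, 248 stayed past 2-fold with equal sums and 192 with a pseudocount of 1. The median of the list of milk genes became -0.05 with equal sums, against 0.10, that of cell cycle inhibitors -0.10, against 0.06, and that of the EGF receptor family 0.02 without a minimum, against -0.11. The spread between pools is unknown and limits every value.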

Other observations

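Several genes outside the described lists stood among the higher ones and were chosen after their values were seen. Plac8, a small protein of myeloid and lymphoid cells, stood at 58.4 FPKM after 4 cycles and 11 FPKM in vehicle tumors. Ly6e, an interferon-stimulated surface protein gene, stood at 149 FPKM after 4 cycles and 42.5 FPKM in vehicle tumors. Irg1, the macrophage enzyme that makes itaconate, stood at 4.25 FPKM after 4 cycles and 0.794 FPKM in vehicle tumors. Lgals7, a galectin of stratified epithelium, stood at 26.4 FPKM after 4 cycles and 3.78 FPKM in vehicle tumors, and Ly6d, also of stratified epithelium, at 5.08 and 0.482 FPKM. The milk protein gene Csn3 stood at 3.97 FPKM after 4 cycles and 0.247 FPKM in vehicle tumors, while the other casein genes Csn1s1 and Csn2 stood at 0.00567 and 0.00711 FPKM after 4 cycles and at 0.0163 and 0 FPKM in vehicle tumors.

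On the lower side, Itga2, a collagen-binding integrin chain, stood at 1.18 FPKM after 4 cycles and 6.01 FPKM in vehicle tumors. Ibsp, a bone matrix protein gene, stood at 1.83 FPKM after 4 cycles and 10.4 FPKM in vehicle tumors, and Serpinb2, an inhibitor of plasminogen activators, at 0.38 and 2.73 FPKM. Cthrc1, a secreted protein of activated fibroblasts, stood at 2.16 FPKM after 4 cycles and 9.48 FPKM in vehicle tumors, and Pthlh, the parathyroid hormone related peptide gene, at 2.57 and 6.92 FPKM. Ribosomal protein genes had 0 of 80 past 2-fold and 72 of 80 with ratios above 1. Their median log2 ratio was 0.17, against 0.06 over all tested genes.

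The remaining lists held few tested genes, so 1 member past 2-fold says little beside the 3.65% higher and 1.6% lower over all tested genes. The airway secretory genes Bpifb1, Ltf and Reg3g were all 3 tested members of their list and were at least 2-fold higher. Each passed the minimum through the treated group alone, which fixed its direction in advance, and Ltf is also a neutrophil granule gene. Of 4 tested clustered histone genes 1 was higher, Hist1h4h, of 3 nerve genes 1 was higher, Ngfr, and of 7 bone genes 1 was lower, Ibsp. Of 8 mammary genes 1 was higher, Csn3, and 1 lower, Glycam1, and of 14 cell cycle inhibitor genes 1 was higher, Cdkn1a. The lists of platelets and of myogenic factors had 1 tested gene each, within 2-fold, and that of cornified epithelium had 0 tested.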
